A study of Mus musculus with 743 samples.

Results

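Among Schwann cells (SCs) of the newborn mouse sciatic nerve, 151 of 621 cells carried the transcript of the cell cycle inhibitor Cdkn1c while those of dividing cells and of myelin onset were low or absent. These Cdkn1c-high cells were chosen on 4 genes. In a cell with at least 1500 detected genes, Mki67 and Top2a together had to be under 50 CPM (reads of a gene per 1000000 reads of the cell), Ncmap under 50 CPM, and Cdkn1c at 200 CPM or more. Plate 1 gave 59 of them and plate 2 gave 92. They are set beside 241 Cdkn1c-low cells (116 and 125 per plate), which met the same limits for Mki67, Top2a and Ncmap but had less Cdkn1c, and beside 120 Ncmap-positive cells (59 and 61) at or above the Ncmap limit. The other 109 cells were cycling (53 and 56). Because these 4 genes chose the classes, their levels are a description and were not tested.

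The study resolved the transcriptomes of single SCs at postnatal day 1 with Smart-seq2, a plate-based method for whole transcripts, here without molecular identifiers. Every cell came from C57bl/6J mice carrying P0Cre, a loxP-stop eYFP allele at Rosa26 and a βAct-DsRed transgene, and all belonged to 1 group. P0Cre switches on eYFP in the SC lineage, and eYFP-positive cells were sorted 1 per well after enzymatic dissociation at 37 °C. Each of the 2 plates received a pool of 1 male and 1 female mouse, so replicate error was taken over plates (n = 2) and never over cells.

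Immature SCs sort large axons out of bundles, leave the cell cycle and become promyelinating SCs, each bound to a single axon, before they build myelin. Cdkn1c encodes p57Kip2, an inhibitor of cyclin-dependent kinases from the Cip/Kip family that is expressed from the maternal allele. In cultured SCs, p57Kip2 is known as a brake on differentiation. Pou3f1 (Oct6) is the POU factor of the promyelinating stage and acts upstream of Egr2 (Krox20), which drives the myelin genes. Ncmap encodes a membrane protein of myelin and, with Prx, belongs to the program that starts at myelin onset. In the GRCm38 annotation, Cdkn1c lies on chromosome 7 from 143458339 to 143461050 on the minus strand, and Pou3f1 on chromosome 4 from 124656807 to 124660655 on the plus strand. An exon of another annotated gene overlaps each of them on the opposite strand. The same holds for Prx, Cldn19, Pllp, Cnp, Cdkn1a, Cdk6, Ncam1, Adgrg6, Matn2, Rasal2, Lpcat2, Zfp36l1, Jun, Csf1r, Tk1, Zeb2, Notch1 and Pdgfra below. Strand use in counting was not stated, so reads of such pairs cannot be told apart.

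The Cdkn1c-high cells held 54604693 reads on plate 1 and 73798681 on plate 2. Their median number of detected genes was 2888 ± 16.6 (SD of the plate medians, n = 2), against 2755 ± 35.7 in Cdkn1c-low and 3615 ± 107 in Ncmap-positive cells. The plate medians of reads per cell averaged 883298 in the Cdkn1c-high, 882645 in the Cdkn1c-low and 869191 in the Ncmap-positive class. With every cell thinned to 50000 reads the gene numbers were 2449, 2312 and 3021, in the same order of classes. Mitochondrial genes took 3.96% and 4.25% of the reads of Cdkn1c-high cells on the 2 plates, 3.86% and 3.87% in Cdkn1c-low and 4.46% and 4.59% in Ncmap-positive cells.

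The label of the sort was checked on SC genes. Erbb3, a neuregulin receptor of SCs, had 311 and 259 CPM in Cdkn1c-high cells on the 2 plates, against 419 and 236 CPM in Cdkn1c-low cells. S100b, a calcium-binding protein of SCs, had 73.8 and 111 against 90.7 and 81.5 CPM, and reads of the lineage factor Sox10 were found in 118 of 151 Cdkn1c-high cells. Some markers of other nerve cells had no read in any Cdkn1c-high cell: Pdgfra of fibroblast-like cells, Ptprc and Tyrobp of immune cells, Acta2 and Rgs5 of mural cells, and Cdh5, Kdr and Emcn of endothelial cells. Other markers of the same lists had reads there: Dcn in 3 and Lum in 2 cells, Cd68 in 1, Pdgfrb in 13 and Cspg4 in 11, and Cldn5 in 4. On plates 1 and 2 these lists summed there to 0.549 and 3.05 CPM (3 fibroblast-like genes) and 37.2 and 23.3 CPM (4 immune genes). The 4 mural genes summed to 50.8 and 64.1 CPM and the 5 endothelial genes to 8.41 and 2.38 CPM. In Cdkn1c-low cells the same sums were 16.1 to 55.4, 3.30 to 18.8, 31.6 to 45.3 and 0.0606 to 0.0665 CPM, and in Ncmap-positive cells 19.5 to 26.6, 2.72 to 18.4, 34.5 to 56.8 and 0 to 0.0767 CPM. Csf1r, a receptor of immune cells, gave nearly all of the immune sum, and its reads came from 15 Cdkn1c-high cells. An exon of Hmgxb3 overlaps Csf1r on the opposite strand. The endothelial gene Pecam1 had 8.37 and 2.36 CPM from 3 Cdkn1c-high cells, 0.00950 and 0.0101 CPM in Cdkn1c-low and no read in Ncmap-positive cells, and was higher at an unadjusted p under 0.05 in both comparisons (edgeR adjusted p = 0.870 and 0.444). Pdgfrb, a mural gene, had 25.1 and 48.7 CPM against 18.4 and 29.7 CPM in Cdkn1c-low and 43.7 and 13.5 CPM in Ncmap-positive cells. The part of these genes in the results was not tested.

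Cdkn1c-high cells made up 33.7% of the noncycling cells under the Ncmap limit on plate 1 (59 of 175, exact 95% binomial interval 26.8 to 41.2%) and 42.4% on plate 2 (92 of 217, 35.7 to 49.3%), or 38.1% ± 6.14 (SD, n = 2). Such intervals cover counting error only. Of the Cdkn1c-low cells, 153 of 241 had no Cdkn1c read at all. Within the Cdkn1c-high class the level ran from 203 through a median of 798 to 12763 CPM on plate 1, and from 201 through 772 to 21599 CPM on plate 2. The plate medians were close while single cells differed by a wide margin. The 3 cells just inside the limit had 201, 203 and 207 CPM and the 3 just outside had 195, 190 and 190 CPM, so the limit cut a continuous range. Between 150 and 250 CPM lay 26 cells, of which 9 were Cdkn1c-high. Cdkn1c also occurred outside the class: 94 of 120 Ncmap-positive cells and 33 of 109 cycling cells also reached 200 CPM.

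**Figure D1:**
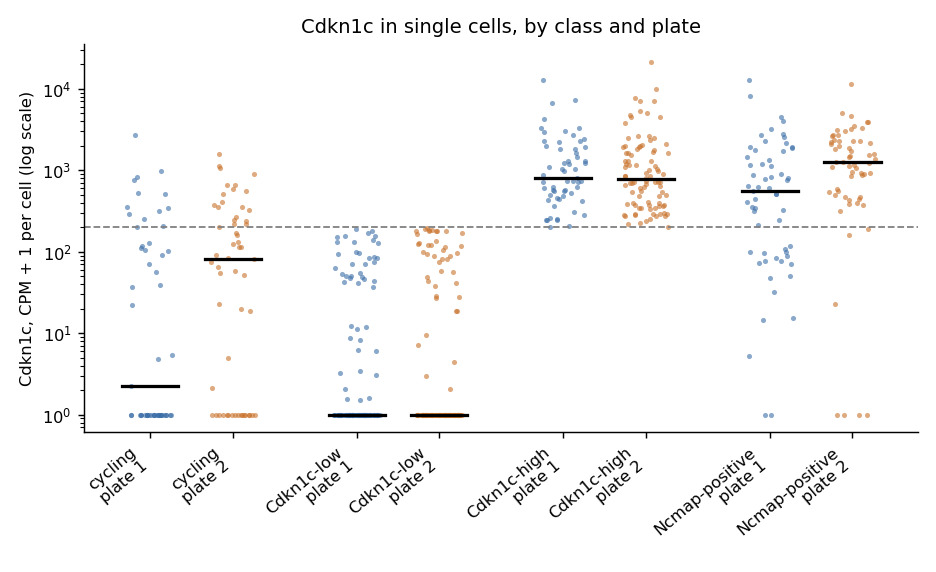
Cdkn1c in each of the 621 cells, as CPM + 1 on a log scale, by class and plate; each point is 1 cell, black bars are medians and the dashed line is the limit of 200 CPM. The Cdkn1c-high classes have medians of 798 and 772 CPM, the Ncmap-positive classes 550 and 1248 CPM, and the Cdkn1c-low classes medians of 0.

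Counts were summed per plate and class and compared with edgeR, taking each plate sum as 1 sample. Among 13453 genes tested, 1 gene differed between Cdkn1c-high and Cdkn1c-low cells at an adjusted p under 0.05, which is 0.00743% of them. At an unadjusted p under 0.05 there were 740 genes (5.5%), of which 296 were higher (2.2%) and 444 lower (3.3%) in Cdkn1c-high cells. The same test with DESeq2 called 320 genes (120 higher, 200 lower) and limma called 1. With the plate as a block, edgeR called 4 genes. Against Ncmap-positive cells, 129 genes (0.959%) passed, 96 higher (0.714%) and 33 lower (0.245%) in Cdkn1c-high cells, and 1221 (9.08%) at an unadjusted p under 0.05, 725 higher (5.39%) and 496 lower (3.69%). The plate sums did not overlap for 34.6% of the genes tested in the first comparison and for 36.8% in the second. The comparisons share the Cdkn1c-high sums and are therefore not independent.

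The gene that passed was Mpp6, a scaffold protein of the membrane-associated guanylate kinase family, on chromosome 6 from 50110241 to 50198939 on the plus strand. Its summed level was 212 and 203 CPM in Cdkn1c-high cells on plates 1 and 2, 29.6 and 28.3 CPM in Cdkn1c-low cells, and 611 and 648 CPM in Ncmap-positive cells. The plates were close in each class and the classes did not overlap. Mpp6 was 7.21-fold higher in Cdkn1c-high than in Cdkn1c-low cells (log2 fold change 2.85, SE 0.25, edgeR adjusted p = 0.00393) and 3.14-fold lower than in Ncmap-positive cells (log2 fold change -1.65, SE 0.24, edgeR adjusted p = 0.00838).

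Mpp6 was present in some Cdkn1c-high cells and not detected in most. A read of it was found in 26 of 59 cells on plate 1 (44.1%, 31.2 to 57.6%) and in 35 of 92 on plate 2 (38.0%, 28.1 to 48.8%), against 22 of 241 Cdkn1c-low and 117 of 120 Ncmap-positive cells. The intermediate level thus came with an intermediate share of positive cells. In Cdkn1c-high cells the median was 0 and the highest value 1708 and 1088 CPM, within the range of the Ncmap-positive cells, whose medians were 564 and 497 CPM. The 3 cells with the most reads held 45.6% and 33.2% of all Mpp6 reads of the class on the 2 plates. The call was lost when the fit held only the sums of the classes compared (edgeR adjusted p = 0.289), with a Cdkn1c limit of 500 CPM (0.131) or with cells of at least 2500 genes (0.150). The log2 fold change was then 2.85, 2.69 and 3.33.

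The next genes by p did not pass the threshold. For 6 of them, Serpine2, Itih5, Rasal2, Gsdme, Ado and Asap1, the level was higher in Cdkn1c-high than in Cdkn1c-low cells and higher again in Ncmap-positive cells on both plates. Serpine2, the serine protease inhibitor protease nexin-1, had 1252 and 1839 CPM in Cdkn1c-high cells against 686 and 655 in Cdkn1c-low and 2302 and 2600 in Ncmap-positive cells. Itih5, a heavy chain of the inter-alpha-trypsin inhibitors of the matrix, had 1145 and 885 against 429 and 286, and then 1685 and 1422 CPM. Rasal2, a GTPase-activating protein of Ras, had 1176 and 783 against 361 and 253, and then 1900 and 1651 CPM. For these 3 the log2 fold changes against Cdkn1c-low cells were 1.21 (SE 0.21), 1.51 (SE 0.26) and 1.69 (SE 0.31), with edgeR adjusted p of 0.254, 0.254 and 0.325. With the plate as a block, Itih5 and Rasal2 passed (edgeR adjusted p = 0.0150 for both). Ado, a thiol dioxygenase, had 169 and 299 CPM against 70.6 and 61.7, and then 290 and 376 CPM. Asap1, a GTPase-activating protein of Arf, had 104 and 120 CPM against 43.7 and 42.8, and then 354 and 305 CPM. Over all genes tested, 12.7% had Cdkn1c-high levels between those of the other classes on both plates. The 6 genes above were picked from genes already higher than in Cdkn1c-low cells on both plates, so that share is no baseline for them. Such a direction held for 3131 of the 13453 genes tested.

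Gsdme, a gasdermin that forms membrane pores, neighbours Mpp6 on the opposite strand, from 50188888 to 50263862. The annotated gene bodies share 10052 bases, with 0 bases of shared exon. Gsdme had 293 and 577 CPM in Cdkn1c-high cells, 107 and 123 CPM in Cdkn1c-low cells and 951 and 1773 CPM in Ncmap-positive cells (log2 fold change against Cdkn1c-low cells 1.92, SE 0.35, edgeR adjusted p = 0.325). The order of the classes was that of Mpp6. Reads of Gsdme without any of Mpp6 were found in 45 of 151 Cdkn1c-high and 58 of 241 Cdkn1c-low cells. Whether reads of one gene were counted for the other elsewhere was not tested.

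Other genes had lower levels in Cdkn1c-high than in Cdkn1c-low cells without passing the threshold. The matrix-bound signalling protein Ccn1 had 611 and 1007 CPM against 2013 and 3224 CPM (log2 fold change -1.69 with an SE of 0.29, edgeR adjusted p = 0.254, and 0.0176 with the plate as a block). The anticoagulant receptor Thbd had 39.0 and 74.9 CPM against 248 and 201 CPM, and the matrix protein Matn2 had 632 and 546 CPM against 1241 and 1074 CPM. The groups did not overlap for any of the 3, as for 34.6% of all genes tested. All 3 were picked among genes lower on both plates. All 3 were in turn lower in Ncmap-positive than in Cdkn1c-high cells, and there they passed: Ccn1 was 3.51-fold, Thbd 30.2-fold and Matn2 2.49-fold higher in Cdkn1c-high cells (edgeR adjusted p = 0.0147, 0.00116 and 0.0103). Lpcat2, an acyltransferase of phospholipids, differed in pattern, with 5.05 and 13.3 CPM in Cdkn1c-high, 109 and 102 CPM in Cdkn1c-low and 10.3 and 7.09 CPM in Ncmap-positive cells.

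Pou3f1, the marker proposed for these cells, had 183 and 239 CPM in Cdkn1c-high cells, 94.7 and 88.1 CPM in Cdkn1c-low cells and 188 and 232 CPM in Ncmap-positive cells. Both Cdkn1c-high sums lay above both Cdkn1c-low sums and beside the Ncmap-positive sum of their plate. The log2 fold change against Cdkn1c-low cells was 1.21 (SE 0.31), with an edgeR adjusted p of 0.635 and an adjusted p of 0.0179 with DESeq2. Against Ncmap-positive cells it was -0.05 (SE 0.30, edgeR adjusted p = 1). A Pou3f1 read was found in 89.8% and 91.3% of Cdkn1c-high cells, 67.2% and 53.6% of Cdkn1c-low cells and 96.6% and 96.7% of Ncmap-positive cells. At 50000 reads per cell the Cdkn1c-high shares were 81.4% and 87.0%.

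Egr2 had 174 and 212 CPM in Cdkn1c-high cells, 132 and 71.6 CPM in Cdkn1c-low cells and 333 and 310 CPM in Ncmap-positive cells, so that it stood between the classes on both plates. Its log2 fold change was 0.92 (SE 0.35, edgeR adjusted p = 0.848) against Cdkn1c-low and -0.79 (SE 0.35, edgeR adjusted p = 0.533) against Ncmap-positive cells. Sox10, the lineage factor that works with Egr2, had 217 and 169 CPM in Cdkn1c-high and 198 and 220 CPM in Cdkn1c-low cells, with overlapping plates. Of the 10 listed transcription factors that drive myelination, 0 passed in either comparison with edgeR. At an unadjusted p under 0.05, 2 were higher (Pou3f1 and Egr2) and 1 was lower (Zeb2) than in Cdkn1c-low cells, beside 2.2% and 3.3% of all genes tested. Lower than in Ncmap-positive cells were 2 (Egr2 and Yy1), beside 3.69%. DESeq2 called 1 of the 10 in the first comparison and 0 in the second, and limma called 0 in both.

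In single cells, Pou3f1 and Egr2 were both at 50 CPM or more in 63 of 151 Cdkn1c-high cells (41.8% ± 0.756, SD of the plates, n = 2), 36 of 241 Cdkn1c-low cells (15.1% ± 4.32) and 82 of 120 Ncmap-positive cells (68.4% ± 1.61). Neither reached it in 25 of 151, 93 of 241 and 1 of 120 cells. Pou3f1 without Egr2 was found in 48 Cdkn1c-high cells, and Egr2 without Pou3f1 in 15. The share with both genes differed by less between plates than between classes.

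**Figure D2:**
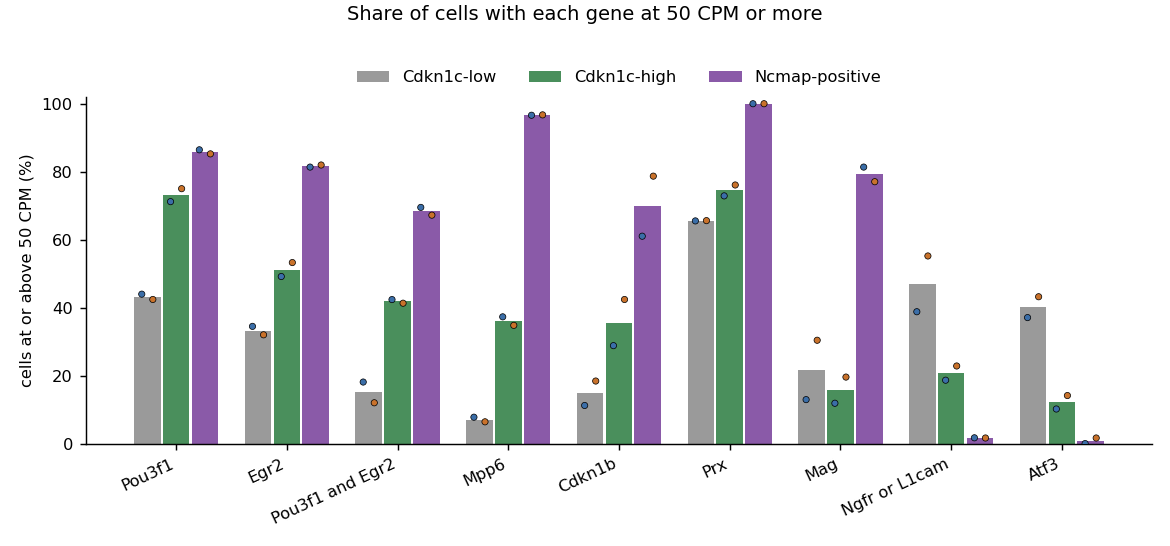
Share of cells, in percent, with a gene at 50 CPM or more in Cdkn1c-low, Cdkn1c-high and Ncmap-positive cells; bars are means of the 2 plates and points the single plates (blue plate 1, orange plate 2). Cdkn1c-high cells stand between the other classes for Mpp6 (17 of 241, 54 of 151 and 116 of 120 cells) and for Ngfr or L1cam (47.0%, 20.7% and 1.67%), and near the Cdkn1c-low cells for Mag (21.7%, 15.7% and 79.2%).

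The other inhibitors of cyclin-dependent kinases differed among themselves. Cdkn1b, which encodes p27Kip1, had 60.5 and 98.7 CPM in Cdkn1c-high cells, 23.4 and 28.1 CPM in Cdkn1c-low cells and 137 and 145 CPM in Ncmap-positive cells. The groups did not overlap, as for 34.6% of all genes tested against Cdkn1c-low and 36.8% against Ncmap-positive cells. The log2 fold change against Cdkn1c-low cells was 1.63 (SE 0.42, edgeR adjusted p = 0.635). Cdkn1b reached 50 CPM in 56 of 151 Cdkn1c-high, 36 of 241 Cdkn1c-low and 84 of 120 Ncmap-positive cells. Cdkn1a, which encodes p21, had 381 and 455 CPM in Cdkn1c-high and 351 and 414 CPM in Cdkn1c-low cells, with overlapping plates, and was 4.24-fold lower than in Ncmap-positive cells (1622 and 1793 CPM, edgeR adjusted p = 0.000907). Of 5 tested inhibitors besides Cdkn1c, Cdkn1a was the 1 that passed against Ncmap-positive cells, and 0 passed against Cdkn1c-low cells with edgeR or limma (1, Cdkn1b, with DESeq2 and at an unadjusted edgeR p under 0.05). At that unadjusted p, 2.2% of all genes tested were higher.

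Genes of division besides Mki67 and Top2a were lower in Cdkn1c-high than in cycling cells. Since Mki67 and Top2a separated those classes, this difference cannot be told apart from the choice and was not tested. The 12 mitosis genes summed to 254 and 123 CPM in Cdkn1c-high, 121 and 180 CPM in Cdkn1c-low, 39.9 and 44.9 CPM in Ncmap-positive and 6472 and 6112 CPM in cycling cells. The 12 replication genes summed to 330 and 353, 448 and 490, 204 and 218, and 1843 and 1715 CPM in the same order. Against Cdkn1c-low cells 0 genes of either list passed with edgeR. At an unadjusted p under 0.05, 2 replication genes (Tk1 and Rrm2) and 1 mitosis gene (Bub1) were lower, beside 3.3% of all genes tested, and 0 higher. DESeq2 called 1 gene, Rrm2, and limma 0. Reads of Bub1 came from 2 Cdkn1c-low cells, and those of Rrm2 from 18.

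Ccnb2, a B-type cyclin, had 102 and 58.0 CPM in Cdkn1c-high cells, 56.4 and 34.9 CPM in Cdkn1c-low cells and 0.0575 and 0.283 CPM in Ncmap-positive cells. It passed against Ncmap-positive cells (log2 fold change 8.82, SE 0.65, edgeR adjusted p = 0.000193), but its reads came from 10 of 151 cells. Cenpf, a kinetochore protein, passed as well with 64.0 and 7.06 CPM in 6 cells, and had 1 read in Ncmap-positive cells, and did not pass with the plate as a block (edgeR adjusted p = 0.0597) or with a limit of 10 CPM for Mki67 and Top2a. The calls of both genes thus rest on few cells. In the machinery that controls entry into replication, 2 of 12 genes passed as higher than in Ncmap-positive cells: Cdk6, a kinase partner of the D cyclins, at 1229 and 1096 against 461 and 502 CPM (log2 fold change 1.22 with an SE of 0.18, edgeR adjusted p = 0.00896), and Ccne1, with reads in 6 cells. Cdk6 was at 1271 and 1487 CPM in Cdkn1c-low cells and 1292 and 1549 CPM in cycling cells.

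A set of myelin genes was lower in Cdkn1c-high than in Ncmap-positive cells. Of 17 listed genes other than Ncmap, 0 passed against Cdkn1c-low cells with edgeR or limma and 1, Prx, with DESeq2. At an unadjusted p under 0.05, 3 were higher and 1 lower, beside 2.2% and 3.3% of all genes tested. All 17 had a negative log2 fold change against Ncmap-positive cells, with a median of -2.12, and 9 passed (14 with DESeq2, 11 with limma and 11 with the plate as a block). Over all genes tested the median was 0.01 and 0.245% passed as lower with edgeR. Since the myelin gene Ncmap separated these classes, lower levels of other myelin genes cannot be told apart from that choice. Pmp22, a membrane protein of compact myelin, had 1702 and 2652 CPM in Cdkn1c-high cells, 2233 and 2629 CPM in Cdkn1c-low cells and 11463 and 11815 CPM in Ncmap-positive cells. Mbp, which compacts the cytoplasmic face of myelin, had 1452 and 2401, 2138 and 2435, and 8156 and 7968 CPM. For both the Cdkn1c-high and Cdkn1c-low plates overlapped, and the Cdkn1c-high cells were 5.56- and 4.35-fold lower than Ncmap-positive cells (edgeR adjusted p = 0.000256 and 0.00121).

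Some myelin genes stood between the classes instead. Prx, which encodes the scaffold periaxin, had 399 and 650 CPM in Cdkn1c-high, 276 and 314 CPM in Cdkn1c-low and 1490 and 1628 CPM in Ncmap-positive cells. Its log2 fold change was 0.83 (SE 0.23, edgeR adjusted p = 0.746) against Cdkn1c-low cells and -1.63 (SE 0.24, edgeR adjusted p = 0.00896) against Ncmap-positive cells. Cldn19, a claudin of the paranodes and incisures, had 205 and 138, 98.8 and 74.6, and 743 and 423 CPM, and passed against Ncmap-positive cells (log2 fold change -1.81, SE 0.34, edgeR adjusted p = 0.0370). Fa2h, the hydroxylase of myelin lipids, had 20.4 and 75.2, 8.86 and 18.8, and 217 and 260 CPM. In all, 6 of the 17 were between the classes on both plates, and 12.7% of all genes were. That share is no baseline here, since levels below those of Ncmap-positive cells cannot be told apart from the choice on Ncmap. On both plates 6 of the 17 were higher and 3 lower than in Cdkn1c-low cells. Over all 13453 genes tested, these numbers were 3131 and 3802. Mal, a myelin proteolipid, went the other way, with 1318 and 1647 CPM in Cdkn1c-high, 2133 and 2117 CPM in Cdkn1c-low and 2610 and 2354 CPM in Ncmap-positive cells, and passed against the last with the plate as a block (edgeR adjusted p = 0.0195).

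The genes that set Ncmap-positive cells furthest apart had few or no reads in Cdkn1c-high cells. Gldn, gliomedin, which helps to assemble nodes of Ranvier, had no read in any Cdkn1c-high cell and 67.5 and 87.2 CPM in Ncmap-positive cells, which were at least 3312-fold higher when 3 reads over the Cdkn1c-high class are taken as the floor. Emid1 had 10.6 and 12.4 CPM against 456 and 463 CPM, and 12 of 151 Cdkn1c-high cells held its reads. Pmp2, the fatty acid binding protein of myelin, had 48.1 and 125 CPM in 19 Cdkn1c-high cells against 2265 and 2136 CPM, a 26.5-fold difference (edgeR adjusted p = 0.00217). The annotation has a further gene, Gm37389, over the exons of Pmp2, and it gave nearly the same values. Csrp2, a LIM domain protein, had 166 and 303 CPM in Cdkn1c-high cells against 1360 and 1370 CPM (edgeR adjusted p = 0.0347, and 0.0641 with the plate as a block), and 105.5 and 48.2 CPM in Cdkn1c-low cells. Pllp, a proteolipid of myelin, had 84.2 and 171 CPM against 463 and 506 CPM, and the enzyme Cnp 1225 and 1219 CPM against 2387 and 2173 CPM, and both passed (edgeR adjusted p = 0.0302 and 0.0259). Mag, the adhesion molecule facing the axon, had 18.6 and 86.6 CPM against 473 and 437 CPM, and passed with the plate as a block (edgeR adjusted p = 0.0143).

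**Figure D3:**
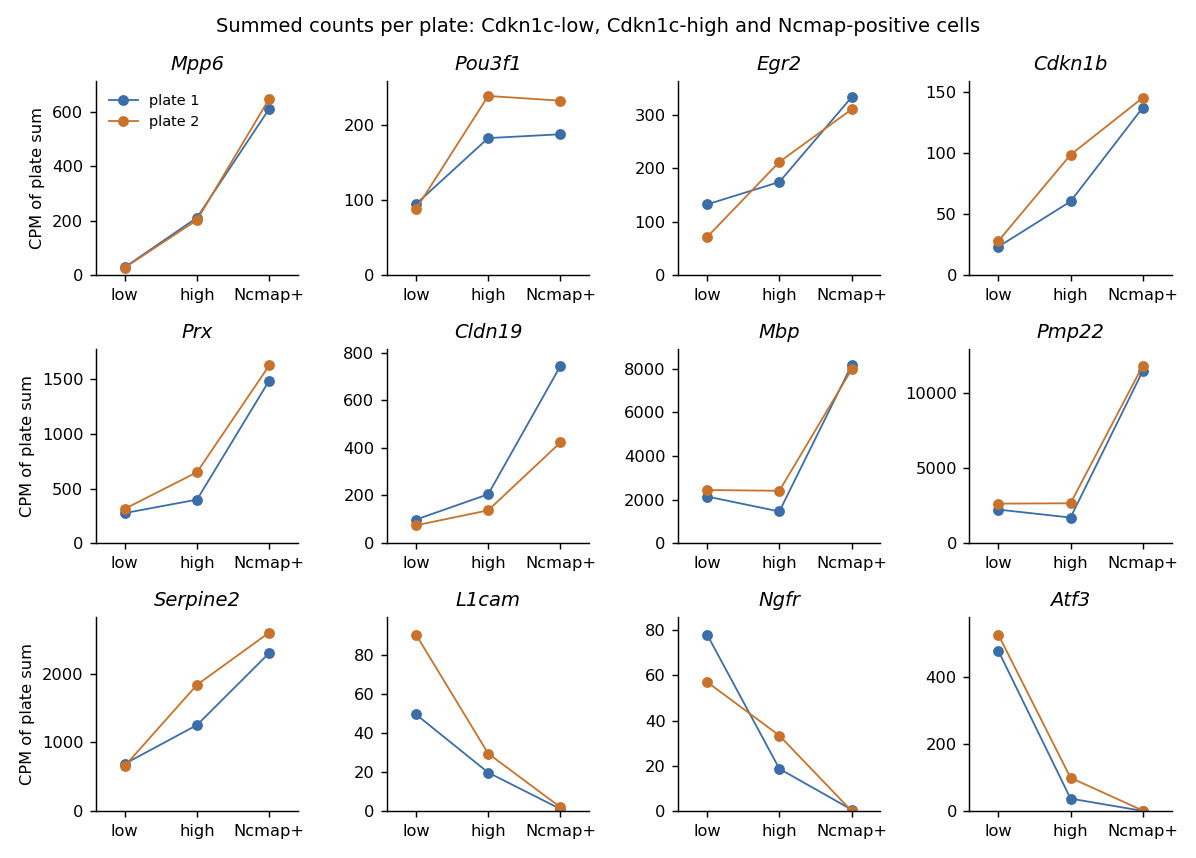
Level of 12 genes in the summed counts of each plate, in CPM on axes that start at 0, for Cdkn1c-low, Cdkn1c-high and Ncmap-positive (Ncmap+) cells; each line joins the sums of 1 plate. On both plates the sums of Mpp6, Serpine2, Prx and Cdkn1b are higher in each class from left to right, those of Mbp and Pmp22 stand out in Ncmap-positive cells, and those of L1cam, Ngfr and Atf3 are highest in Cdkn1c-low cells.

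Of 11 tested genes of immature SCs, 0 passed between Cdkn1c-high and Cdkn1c-low cells with edgeR, DESeq2 or limma. The median log2 fold change of the 11 was -1.21, against -0.03 over all genes tested. At an unadjusted p under 0.05, 2 (L1cam and Nes) were lower and 0 higher, beside 3.3% and 2.2% of all genes. L1cam, an adhesion molecule of axons and immature SCs, had 19.7 and 29.5 CPM in Cdkn1c-high, 49.6 and 90.6 CPM in Cdkn1c-low and 0.978 and 1.89 CPM in Ncmap-positive cells. Ngfr, the low-affinity neurotrophin receptor, had 18.6 and 33.3, 78.0 and 57.02, and 0.575 and 0 CPM. Either was at 50 CPM or more in 32 of 151 Cdkn1c-high, 114 of 241 Cdkn1c-low and 2 of 120 Ncmap-positive cells. An exon of Arhgap4 overlaps L1cam on the same strand, so L1cam counts are uncertain.

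Other immature genes overlapped between these classes. Ncam1, the neural cell adhesion molecule, had 432 and 446 CPM in Cdkn1c-high, 608 and 443 CPM in Cdkn1c-low and 158 and 170 CPM in Ncmap-positive cells. Cadm1, an adhesion molecule of the nectin-like family, had 399 and 562, 431 and 641, and 142 and 84.1 CPM. Chl1, a relative of L1cam, had 229 and 86.8, 183 and 155, and 9.88 and 11.7 CPM. Each of the 3 was lower in both plates of Ncmap-positive cells. Ncmap separated Cdkn1c-high from Ncmap-positive cells, so differences in immature genes between them cannot be told apart from that choice. Against Ncmap-positive cells 6 of 11 passed with edgeR, beside 0.959% of all genes tested. Of these, 5 were higher in Cdkn1c-high cells: Ncam1 (log2 fold change 1.37), Cadm1 (2.04), Chl1 (3.83), L1cam (4.04) and Emp1 (9.07). Emp1 had no read in Ncmap-positive cells of plate 2, and its log2 fold change ran from 5.36 to 10.5 over 17 alternative fits. Nes, which encodes the intermediate filament nestin, was lower (log2 fold change -2.72, SE 0.42, edgeR adjusted p = 0.0123), at 24.7 and 35.9 CPM against 155 and 229 CPM, and had 84.5 and 55.6 CPM in Cdkn1c-low cells.

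With each cell thinned to 50000 reads, Cdkn1c-high cells held reads of a median of 8 and 9 of the 17 myelin genes on plates 1 and 2, Cdkn1c-low cells of 8 and 8, and Ncmap-positive cells of 13 and 13. Of the 12 immature genes, the medians were 3 and 4, 5 and 5, and 3 and 3. The numbers of myelin genes per cell were thus near those of Cdkn1c-low cells. The median of immature genes equalled that of Ncmap-positive cells on plate 1 and lay between the other classes on plate 2. With all reads this list summed to 1394 and 1476 CPM in Cdkn1c-high, 1820 and 1833 in Cdkn1c-low and 675 and 712 in Ncmap-positive cells. Single Cdkn1c-high cells ranged from 4 to 13 myelin genes on both plates.

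**Figure D4:**
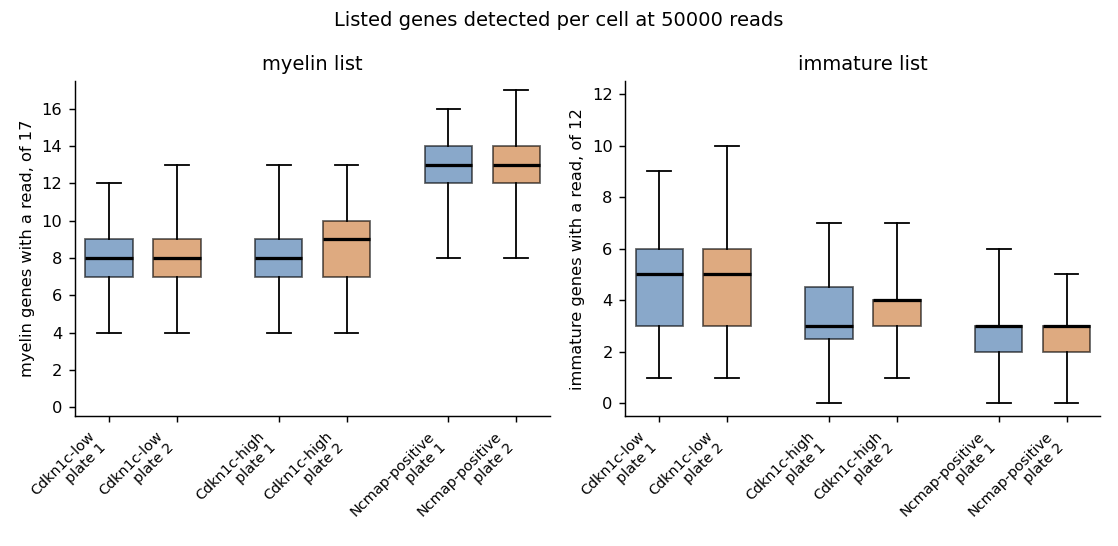
Number of the 17 myelin genes (left) and 12 immature genes (right) with a read in each cell thinned to 50000 reads; boxes show quartiles, black lines medians and whiskers the full range, for each class and plate. The myelin medians of Cdkn1c-high cells, 8 and 9, lie beside the 8 of Cdkn1c-low cells, and their immature medians, 3 and 4, lie from 1 to 2 genes below the 5 of Cdkn1c-low cells.

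Beyond the lists, several genes passed as higher than in Ncmap-positive cells. Smim5, a small membrane protein, had 487 and 526 CPM in Cdkn1c-high, 310 and 345 CPM in Cdkn1c-low and 29.6 and 30.8 CPM in Ncmap-positive cells, and was 16.2-fold higher in Cdkn1c-high than in Ncmap-positive cells (edgeR adjusted p = 0.000193). Ptn, the growth factor pleiotrophin, had 269 and 332, 388 and 510, and 16.9 and 24.5 CPM (log2 fold change against Ncmap-positive cells 3.81, SE 0.28, edgeR adjusted p = 0.000193). Smim5 was highest and Ptn intermediate in Cdkn1c-high cells. Igfbp3, a binding protein of insulin-like growth factors, and Ifitm3, an interferon-induced membrane protein, were 25.6- and 14.1-fold higher than in Ncmap-positive cells (edgeR adjusted p = 0.0278 and 0.0112). Their levels in Cdkn1c-high cells were 70.3 and 32.3 CPM, and 60.1 and 130 CPM. In Cdkn1c-low cells Igfbp3 had 66.2 and 52.6 and Ifitm3 110 and 124 CPM, with overlapping plates. The messenger RNA decay factor Zfp36l1 was 13.7-fold higher than in Ncmap-positive cells (edgeR adjusted p = 0.0140). It had 127 and 114 CPM in Cdkn1c-high and more, 183 and 227 CPM, in Cdkn1c-low cells. Wnt6, a secreted Wnt ligand, and the tubulin Tubb6 passed too, with edgeR adjusted p of 0.0337 and 0.0174, but not with the plate as a block (0.0669 and 0.145).

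Among 10 genes of signalling at the axon, 0 passed with edgeR in either comparison. Against Cdkn1c-low cells 0 had an unadjusted p under 0.05, and DESeq2 and limma called 0. Against Ncmap-positive cells 1, Adgrg6, had one and was called by both. Adgrg6 (Gpr126), the adhesion receptor that SCs need to start myelination, had its highest level in Cdkn1c-high cells, with 136 and 133 CPM against 68.7 and 95.9 CPM in Cdkn1c-low and 24.4 and 32.4 CPM in Ncmap-positive cells. Its log2 fold change against Ncmap-positive cells was 2.20 (SE 0.45), with an edgeR adjusted p of 0.0523, and of 0.0364 with the plate as a block. Of 12 negative regulators of myelination, 0 passed in either comparison with edgeR, and DESeq2 and limma called 2 and 1 as higher than in Ncmap-positive cells and 0 against Cdkn1c-low cells. At an unadjusted p under 0.05, 2 (Pax3 and Jun) were lower than in Cdkn1c-low cells, beside 3.3% of all genes tested. Higher than in Ncmap-positive cells were 5 (Notch1, Sox2, Jun, Egr3 and Id2), beside 5.39%. Jun, which opposes Egr2, had 269.5 and 357 CPM in Cdkn1c-high, 446 and 583 CPM in Cdkn1c-low and 132 and 137 CPM in Ncmap-positive cells, and passed against Ncmap-positive cells with the plate as a block (edgeR adjusted p = 0.0192). Sox2 was at 34.4 and 29.0, 17.9 and 23.3, and 11.2 and 11.3 CPM.

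Of 10 tested imprinted genes besides Cdkn1c, 0 passed in either comparison with edgeR or limma, and DESeq2 called 1, Mest, as higher than in Cdkn1c-low cells. At an unadjusted p under 0.05, Mest was higher than in Cdkn1c-low cells, beside 2.2% of all genes tested. Higher than in Ncmap-positive cells were 3 (Sgce, Peg3 and Grb10), beside 5.39%. Mest, expressed from the paternal allele, had 54.3 and 96.4 CPM in Cdkn1c-high, 8.90 and 6.28 CPM in Cdkn1c-low and 87.1 and 33.98 CPM in Ncmap-positive cells (log2 fold change against Cdkn1c-low cells 3.31, SE 0.67, edgeR adjusted p = 0.503). Its reads were found in 59 of 151, 24 of 241 and 42 of 120 cells. An exon of Copg2 overlaps Mest on the opposite strand. The 8 genes of the LIM kinase and cofilin route to actin, with which p57Kip2 is known to interact, gave 0 calls with edgeR and limma in both comparisons. At an unadjusted p under 0.05, 0 differed from Cdkn1c-low cells and 3 were lower than in Ncmap-positive cells, beside 3.69% of all genes. DESeq2 called 1 of them lower in the second comparison. Of 12 genes of cholesterol and fatty acid synthesis, 0 passed with edgeR. Against Ncmap-positive cells 0 higher and 4 lower ones had an unadjusted p under 0.05, beside 5.39% and 3.69% of all genes tested. DESeq2 called 2 of the 12 there and limma 1. Against Cdkn1c-low cells, 0 of the 12 had such a p, and DESeq2 and limma called 0.

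The summed level of genes that respond to tissue dissociation lay between those of the other classes in Cdkn1c-high cells. The 8 listed genes summed to 3574 and 4462 CPM in Cdkn1c-high, 7018 and 7808 CPM in Cdkn1c-low and 2205 and 2469 CPM in Ncmap-positive cells. Fos had 2958 and 3265 CPM in Cdkn1c-high and 5126 and 5525 CPM in Cdkn1c-low cells (log2 fold change -0.77, SE 0.18, edgeR adjusted p = 0.519). Atf3, an early stress-response factor, had 36.8 and 99.1 CPM in Cdkn1c-high, 479 and 527 CPM in Cdkn1c-low and 0 and 1.07 CPM in Ncmap-positive cells, and was at 50 CPM or more in 19 of 151, 97 of 241 and 1 of 120 cells. Against Cdkn1c-low cells 4 of the 8 were lower and 0 higher at an unadjusted p under 0.05, beside 3.3% and 2.2% of all genes tested. With edgeR 0 of the 8 passed (1, Fos, with DESeq2, 0 with limma). In cells with Atf3 under 50 CPM, a restriction added after the values were seen, the log2 fold change of Mpp6 was 2.54 (edgeR adjusted p = 0.0452) and 84 genes passed against Ncmap-positive cells, while Cldn19, Pllp, Emid1, L1cam, Wnt6 and Ccne1 no longer did. The part of dissociation in these differences, that of Mpp6 included, was not tested.

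Cdkn1c-high cells varied among themselves. Those with Mpp6 at 50 CPM or more (22 and 32 cells per plate) had a median Cdkn1c level of 1412 and 1499 CPM, and the others (37 and 60 cells) of 726 and 629 CPM. Egr2 reached 50 CPM in 16 of 22 and 24 of 32 of the former and in 13 of 37 and 25 of 60 of the latter. Prx did so in 19 of 22 and 31 of 32, against 24 of 37 and 39 of 60. Ngfr or L1cam did so in 0 of 22 and 4 of 32, against 11 of 37 and 17 of 60. On both plates the cells with Mpp6 thus had larger shares with Egr2 and Prx and a smaller share with Ngfr or L1cam. Their median number of detected genes was also larger, at 2986 and 3118 against 2778 and 2800, and the part of depth in this split was not tested. Grouped by transcription factors, Mpp6 reached 50 CPM in 14 of 25 and 20 of 38 cells with both Pou3f1 and Egr2, in 5 of 17 and 6 of 31 cells with Pou3f1 alone, in 2 of 4 and 4 of 11 cells with Egr2 alone, and in 1 of 13 and 2 of 12 cells with neither. The median number of myelin genes with a read was 9 and 10 in cells with both factors, 7 and 8 with Pou3f1 alone, 10 and 9 with Egr2 alone and 8 and 8 with neither. Cells with both also had more detected genes, at a median of 3105 and 3019.5 against 2668 and 2471.5 in cells with neither. No test was made between these subsets, since they are cells of the same plates.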

How the data were processed

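Single eYFP-sorted SCs were sequenced with Smart-seq2. According to the processing notes, the authors mapped reads with STAR 2.6.1c to GRCm38.p5 and featureCounts gave the counts. The methods name another STAR version and a human assembly, while the gene IDs are mouse IDs. The deposited values are raw counts per gene and well, with no molecular identifiers (25700 genes, 743 wells). Symbols came from GENCODE M21 (25587 IDs matched).

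Wells with at least 1500 genes were kept, leaving 621. CPM is the count over the total of the cell or sum times 1000000, not corrected for length, so levels are compared within a gene only. Counts were summed per plate over 4 classes (8 sums) and tested with edgeR 4.0.16 (TMM, filterByExpr, robust glmQLFit, glmQLFTest) with no plate term. The Benjamini-Hochberg adjustment ran over 13453 genes, leaving out the 4 genes of the rule. Each SE was obtained by dividing the size of the log2 fold change by the root of the F statistic. Cells were in 1 sum or another by their own counts, and the spread between plates does not cover this choice. Sums of a plate share their mice, and deviations between plates correlated with r from 0.113 to 0.169 for the 6 pairs of classes over 3717 genes, so the plates pair the sums and a fit blocking on plate was among the alternatives. Further ones were DESeq2 1.42.0, limma 3.58.1 on the log2 of the cells' mean CPM plus 1, cells thinned to 50000 reads, leaving out each plate, and other filters and limits. The steps were tested on simulated data. No doublet caller was run on the sorted cells.

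The members, limits and 18 gene lists were chosen with earlier results of these data known. Besides listed genes, named genes were the 10 with the largest change in each direction of a comparison (past an adjusted p of 0.05, moving alike in each plate and reaching 50 CPM in the class with more), filled up to 10 by smallest p, and not all are described. H19 and Meg3 were not analysed here, and some listed genes are counted in their lists but not reported here by name.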

Additional observations from a re-analysis of the deposited data

Results flagged for a closer look

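Below the minimum of 1500 genes, 13 of 122 wells met the other limits of the Cdkn1c-high class, 8 of 83 on plate 1 and 5 of 39 on plate 2. Only some of them entered any comparison, under the alternative with a lower gene minimum, where the class held 63 and 95 cells in place of 59 and 92. Their Cdkn1c levels ran from 524 to 6525 CPM and their median was 50216 reads. They were singled out because the signal lies in wells that the comparisons as reported did not use.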

How the results depend on the processing

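Counts of calls depended on the tool and filter. Against Cdkn1c-low cells, where 1 gene and 0 listed genes passed, the counts were 4 with the replicate block, 320 (7 listed) with DESeq2, 116 (10 listed) with no filter on low counts, 2 (1 listed) against cells with no Cdkn1c read, and 0 with only the sums of the 2 classes, with at least 2500 genes or with a Cdkn1c limit of 500 CPM. Against Ncmap-positive cells, where 129 genes and 20 listed genes passed, they were 804 (40) with DESeq2, 225 (31) with limma, 472 (45) with no filter, 37 (7) with only the sums of the 2 classes, 221 (33) with cells thinned and 230 (33) with classes formed again on the thinned reads. With Atf3 under 50 CPM, chosen after seeing the data, the count was 84. The cause of these shifts was not tested, apart from the smaller number of samples in the fit of 2 classes.

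The log2 fold change of Pou3f1 against Ncmap-positive cells, -0.05, changed sign to 0.12 with limma, 0.00543 and 0.12 with thinned cells (classes kept and formed again), 0.12 with a Cdkn1c limit of 500 CPM and 0.0071 with an Ncmap limit of 10 CPM. No other fold change of the 26 and 45 examined in the comparisons changed sign, also on each plate alone, where a ratio has no test and no count of calls can be had. Besides the calls named above, the plate as a block changed no call among these genes except that Ier2 passed against Ncmap-positive cells. Of those among the 45 genes that passed there, 22 were lost with only the sums of the 2 classes, 10 with a Cdkn1c limit of 500 CPM, 8 with Atf3 under 50 CPM, 5 with at least 2500 genes and at most 4 in any other setting.

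The share of Cdkn1c-high cells, 38.1%, moved to 45.3% with a Cdkn1c limit of 100 CPM and to 26.6% with 500 CPM, and lay between 33.7% and 42.4% when a plate was left out. With at least 5 reads, the shares of cells with Mpp6 were 38.3% in Cdkn1c-high, 8.31% in Cdkn1c-low and 95.8% in Ncmap-positive cells, and those with Pou3f1 were 84.2% in Cdkn1c-high and 92.6% in Ncmap-positive cells. With thinned cells, Mpp6 was found in 37.7% of Cdkn1c-high, 7.54% of Cdkn1c-low and 96.6% of Ncmap-positive cells and Pou3f1 in 84.2% of Cdkn1c-high and 94.1% of Ncmap-positive cells. Genes per cell with thinned reads were 2312 in Cdkn1c-low, 2449 in Cdkn1c-high and 3021 in Ncmap-positive cells.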
